A study of Rattus norvegicus albus with 6 samples.

Results

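Frizzled proteins are the cell surface receptors of Wnt ligands, and LRP5 and LRP6 are the co-receptors that join them in the canonical branch of the pathway. The genes described here are every probe set named exactly Fzd1 to Fzd10, Lrp5 or Lrp6, whatever its value. The rule found 9 genes of the 14322 that carry a name on the array, 7 of them Frizzled receptors (Fzd1, Fzd2, Fzd4, Fzd5, Fzd6, Fzd8 and Fzd9) and 2 of them LRP co-receptors. Each was measured by 1 probe set, and Fzd3, Fzd7 and Fzd10 were not analysed here. All 9 lay above the level filter that kept 10025 genes, so none was left out.

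A Wnt ligand bridges a Frizzled, through its cysteine-rich outer domain, to LRP5 or LRP6. The clustered receptors recruit Dishevelled to Frizzled and Axin to the LRP tail, which stops the destruction of β-catenin and lets it switch on target genes with TCF and LEF factors. Frizzleds also carry signals that do not need LRP5 or LRP6, such as those of planar cell polarity and calcium. In hepatic stellate cells, the vitamin A storing cells that become matrix-producing myofibroblasts when the liver is injured, Wnt signalling has been studied as a part of that activation.

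Primary rat stellate cells were activated by 7 days of culture on plastic in 10% serum and then divided into 6 groups, with 1 array each. The Ad.DKK-1 group received an adenovirus that expresses DKK-1, the secreted antagonist that binds LRP5 and LRP6, and its control, Ad.GFP, a virus that expresses green fluorescent protein. Both viruses were given at a multiplicity of infection of 200 for 24 h in 5% serum, and 24 h without serum followed. The ICG-001 group was exposed for 24 h to 10 µM of ICG-001, which keeps β-catenin from the coactivator CBP, and the FJ9 group to 200 µM of FJ9, which keeps Dishevelled from Frizzled; each had its own vehicle array, and both compounds and vehicles were applied without serum. Strain, sex and age of the rats are not named in the sources used here. RNA of 3 to 4 rats was pooled for each array, so no single treatment has a replicate, and no p-value exists for any treatment on its own. The series looks for genes under the control of canonical Wnt signalling, and the question here is how the messages of its own receptors stood after each block.

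The values are log2 expression levels from RMA, an array summary that corrects background and scales arrays to each other. A difference is always the treated array minus its own control on that log2 scale, and a gene counts as lower or higher when it is at least 1.5-fold away (0.58 on the log2 scale). The vehicle of FJ9 minus that of ICG-001 shows how far pools without drug stood apart, and its standard deviation over all genes was 0.34. Array medians lay between 7.01 and 7.28, and over all probe sets the ICG-001 array's median was 0.17 below that of its vehicle. All 13 stellate cell and myofibroblast markers with a name were above the level filter, among them Pdgfrb, Lrat, Des and Col1a1, with list means of 10.51 to 10.79 on treated arrays and 11.24 to 11.56 on control arrays. Of 9 macrophage markers, 4 were above the filter (Cd68, Csf1r, Cd14 and Lyz2), and the list means were 6.30 to 6.59 on treated and 7.04 to 7.36 on control arrays. Only Hnf4a of 7 hepatocyte markers and Tie1 of 3 endothelial markers passed the filter, as did Krt19 and Epcam of 3 cholangiocyte markers. In a pooled culture, fewer cells of one kind and less message per cell cannot be told apart.

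**Figure D1:**
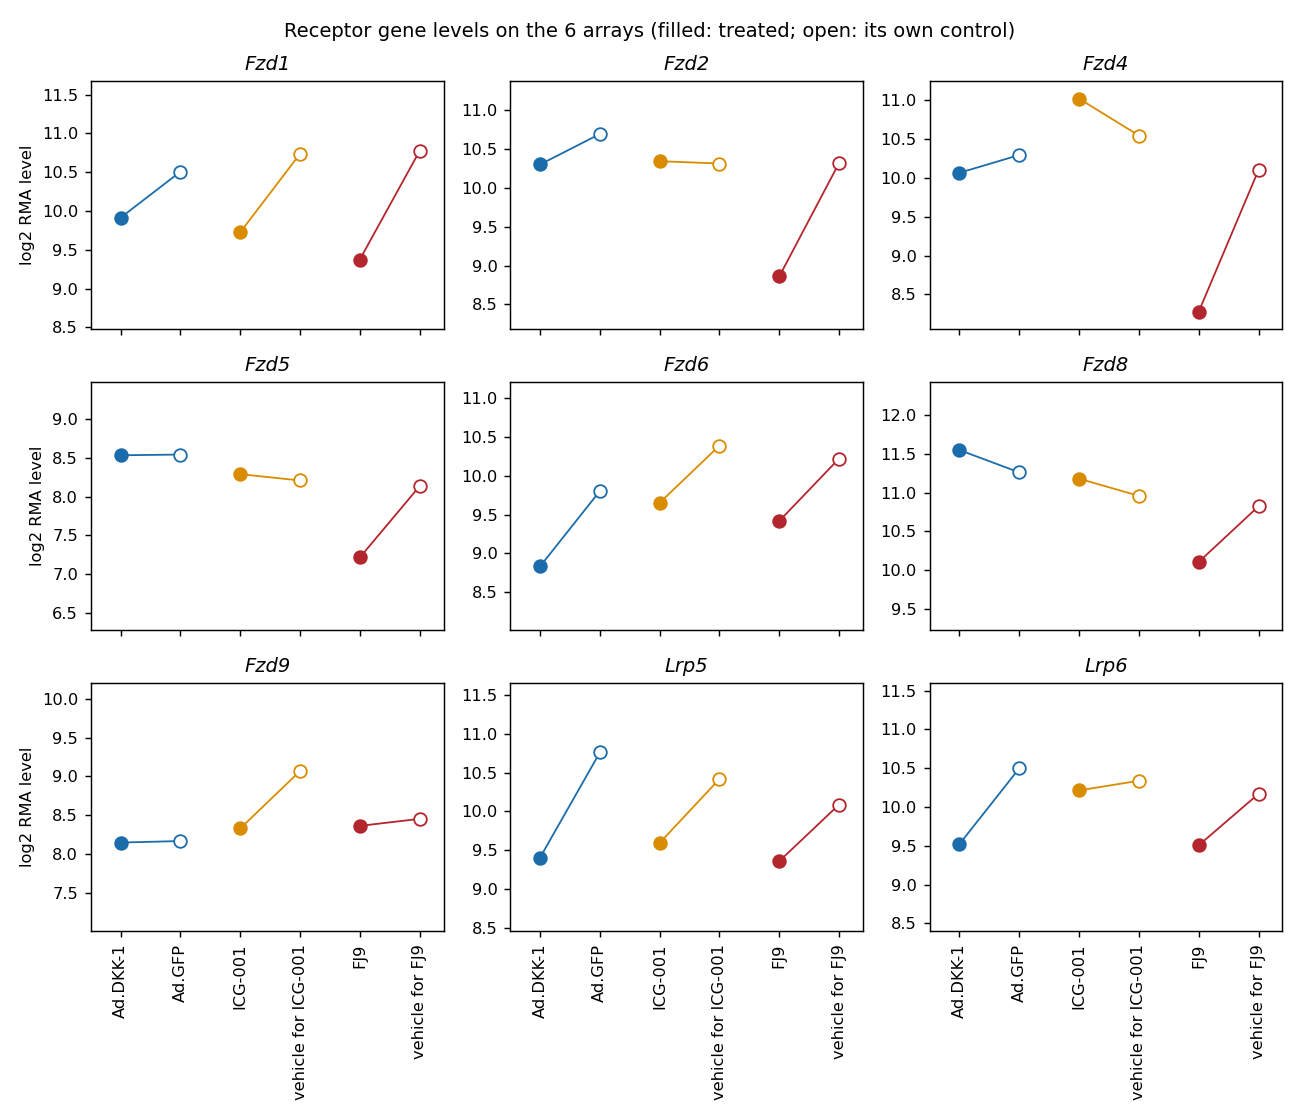
Level of each receptor gene on the 6 arrays, in log2 RMA units, with filled points for treated arrays and open points for their own controls joined by a line. Every panel spans the same number of log2 units. The FJ9 point is the lowest of the panel for 7 genes, and Ad.DKK-1 is the lowest for Fzd6 and Fzd9. In Lrp5 and Lrp6 the FJ9 and Ad.DKK-1 points lie only 0.05 and 0.02 apart.

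Frizzled receptors stood low after FJ9. Of the 7, 6 were at least 1.5-fold lower on the FJ9 array than on its vehicle array and none was higher, with a median difference of −0.92. Together with the LRP genes the count was 8 of 9 lower and none higher, where 14.8% of all 10025 genes were lower and 11.6% higher by as much. FJ9 was the lowest of the 6 arrays for 7 of the 9 genes, which was so for 19.9% of all genes. Ad.DKK-1 was the lowest for the other two, against 27.5% of all genes. No test of these counts is possible with single arrays, and the genes are not independent of each other.

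Fzd4 is the receptor of norrin as well as of Wnt ligands and is best known for its part in retinal vessel growth. It read 10.07 on Ad.DKK-1 against 10.30 on Ad.GFP, 11.02 with ICG-001 against 10.55 with its vehicle, and 8.28 with FJ9 against 10.10 with its vehicle. The FJ9 array stood alone at the bottom, 1.79 below the next lowest array, while the 3 control arrays spanned 0.44. Its FJ9 difference of −1.83, or 3.54-fold lower, was the 154th lowest among 10025 genes. With ICG-001 the same gene was the highest of the 6 arrays, at a difference of 0.47, and against the vehicle of FJ9 that difference was 0.92. Between those 2 vehicles Fzd4 itself differed by −0.44.

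Fzd2, a receptor used by Wnt5a among other ligands, read 10.30 on Ad.DKK-1 against 10.70 on Ad.GFP, 10.35 with ICG-001 against 10.32 with its vehicle, and 8.86 with FJ9 against 10.32 with its vehicle. Every array but FJ9 lay within 0.39 of the highest, and FJ9 was 1.44 below the next one. The FJ9 difference was −1.46, 2.75-fold lower. Fzd5, a receptor for canonical ligands that is needed in intestinal and yolk sac tissue of mice, was also lowest with FJ9. It read 8.53 on Ad.DKK-1 against 8.54 on Ad.GFP, 8.29 with ICG-001 against 8.21 with its vehicle, and 7.22 with FJ9 against 8.14 with its vehicle. Its difference was −0.92 with FJ9, and −0.01 and 0.08 with Ad.DKK-1 and ICG-001, both smaller than the 0.41 that the control arrays spanned.

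Fzd8, a close relative of Fzd5 in sequence, did not share one direction over the treatments. It read 11.55 on Ad.DKK-1 against 11.26 on Ad.GFP, 11.18 with ICG-001 against 10.96 with its vehicle, and 10.11 with FJ9 against 10.82 with its vehicle. The Ad.DKK-1 array was the highest of the 6 and the FJ9 array the lowest. The Ad.DKK-1 difference of 0.29 and the ICG-001 difference of 0.22 were within the control arrays' span of 0.44, and the FJ9 difference of −0.72 was beyond it.

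Fzd1 was lower in every comparison. This receptor, related to Fzd2, can signal with LRP5 and LRP6 to β-catenin. It read 9.91 on Ad.DKK-1 against 10.51 on Ad.GFP, 9.73 with ICG-001 against 10.74 with its vehicle, and 9.38 with FJ9 against 10.77 with its vehicle. All 3 treated arrays lay below all 3 control arrays, with a gap of 0.59 between the groups against a span of 0.27 among the controls. The differences were −0.59, −1.01 and −1.40 with Ad.DKK-1, ICG-001 and FJ9, and the vehicles differed by 0.04. The Ad.DKK-1 difference is 1.51-fold, at the limit of the count, and it was under 1.5-fold with median centring, repeated quantile normalization and cyclic loess. Fzd1 and Fzd2 are alike in sequence, and whether their probes share signal with each other or with Fzd7 was not tested.

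Fzd6, which in mice acts in planar polarity of hair and can dampen β-catenin signalling, was also lower in every comparison. Its levels were 8.83 on Ad.DKK-1 against 9.80 on Ad.GFP, 9.65 with ICG-001 against 10.39 with its vehicle, and 9.42 with FJ9 against 10.22 with its vehicle. The treated arrays again lay below the controls, but by a gap of only 0.15, while the controls spanned 0.58. Among control arrays, Ad.GFP was the lowest, 0.42 below the vehicle of FJ9. The differences from own controls were −0.97, −0.74 and −0.80 with Ad.DKK-1, ICG-001 and FJ9. Against the vehicles of ICG-001 and FJ9, which received no virus, the Ad.DKK-1 difference was −1.56 and −1.39.

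Fzd9, a receptor with roles in bone formation, read 8.15 on Ad.DKK-1 against 8.17 on Ad.GFP, 8.33 with ICG-001 against 9.07 with its vehicle, and 8.36 with FJ9 against 8.45 with its vehicle. Only the vehicle of ICG-001 stood apart, 0.62 above the next array. The ICG-001 difference of −0.74 therefore rested on that array, and against the vehicle of FJ9 it was −0.12. Fzd9 was the 1 receptor gene of 9 past 1.5-fold between the vehicles, where 5.2% of all genes were lower by as much.

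Under Ad.DKK-1 the receptor genes furthest below Ad.GFP were Lrp5 at −1.35, then Lrp6 at −0.98 and Fzd6 at −0.97, which cannot be ranked. With either vehicle in place of Ad.GFP, Fzd6 was the furthest below. Lrp5 and Lrp6 encode the proteins that DKK-1 binds, and both were at least 1.5-fold lower on Ad.DKK-1 than on Ad.GFP. Of the 7 Frizzleds, 2 were lower as well, Fzd6 and Fzd1, and none was higher. That made 4 of 9 genes lower and none higher, beside 20.8% of all genes lower and 14.5% higher in this comparison. Against the vehicles of ICG-001 and FJ9, Fzd8 was past 1.5-fold higher, at 0.59 and 0.72. Those cultures received no virus, so infection and DKK-1 cannot be told apart when they replace Ad.GFP. Ad.GFP itself stood 0.30 and 0.44 above them in Fzd8. The 9 genes had a median difference of −0.39, against −0.07 over all genes. Dkk1 itself read 6.01 on Ad.DKK-1 and 5.85 on Ad.GFP. Its mean level was under the filter, and the species of the DKK-1 in the virus is not named, so the array labelled Ad.DKK-1 is not checked by this value.

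Lrp5, whose loss weakens bone in humans and mice, read 9.40 on Ad.DKK-1 against 10.76 on Ad.GFP, 9.59 with ICG-001 against 10.42 with its vehicle, and 9.36 with FJ9 against 10.09 with its vehicle. The 3 treated arrays spanned 0.24 and all lay below the 3 control arrays, which spanned 0.67. The gap between the groups was 0.49. The differences were −1.35, −0.82 and −0.73 in the same order, 2.56-, 1.77- and 1.66-fold lower. The controls differed as well, and Ad.GFP read 0.34 and 0.67 above the vehicles of ICG-001 and FJ9. Against those vehicles, which received no virus, the Ad.DKK-1 difference was −1.01 and −0.68.

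Lrp6, the paralogue that is the more needed of the pair in mouse embryos, read 9.52 on Ad.DKK-1 against 10.50 on Ad.GFP, 10.21 with ICG-001 against 10.34 with its vehicle, and 9.51 with FJ9 against 10.17 with its vehicle. The Ad.DKK-1 and FJ9 arrays were low and 0.02 apart, and the ICG-001 array lay among the controls. Its differences were −0.98, −0.12 and −0.66 with Ad.DKK-1, ICG-001 and FJ9. Lrp6 was thus 1.97-fold lower with Ad.DKK-1 and 1.09-fold lower with ICG-001. Whether these treatments differ in their effect on Lrp6 was not tested, because each has 1 array.

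**Figure D2:**
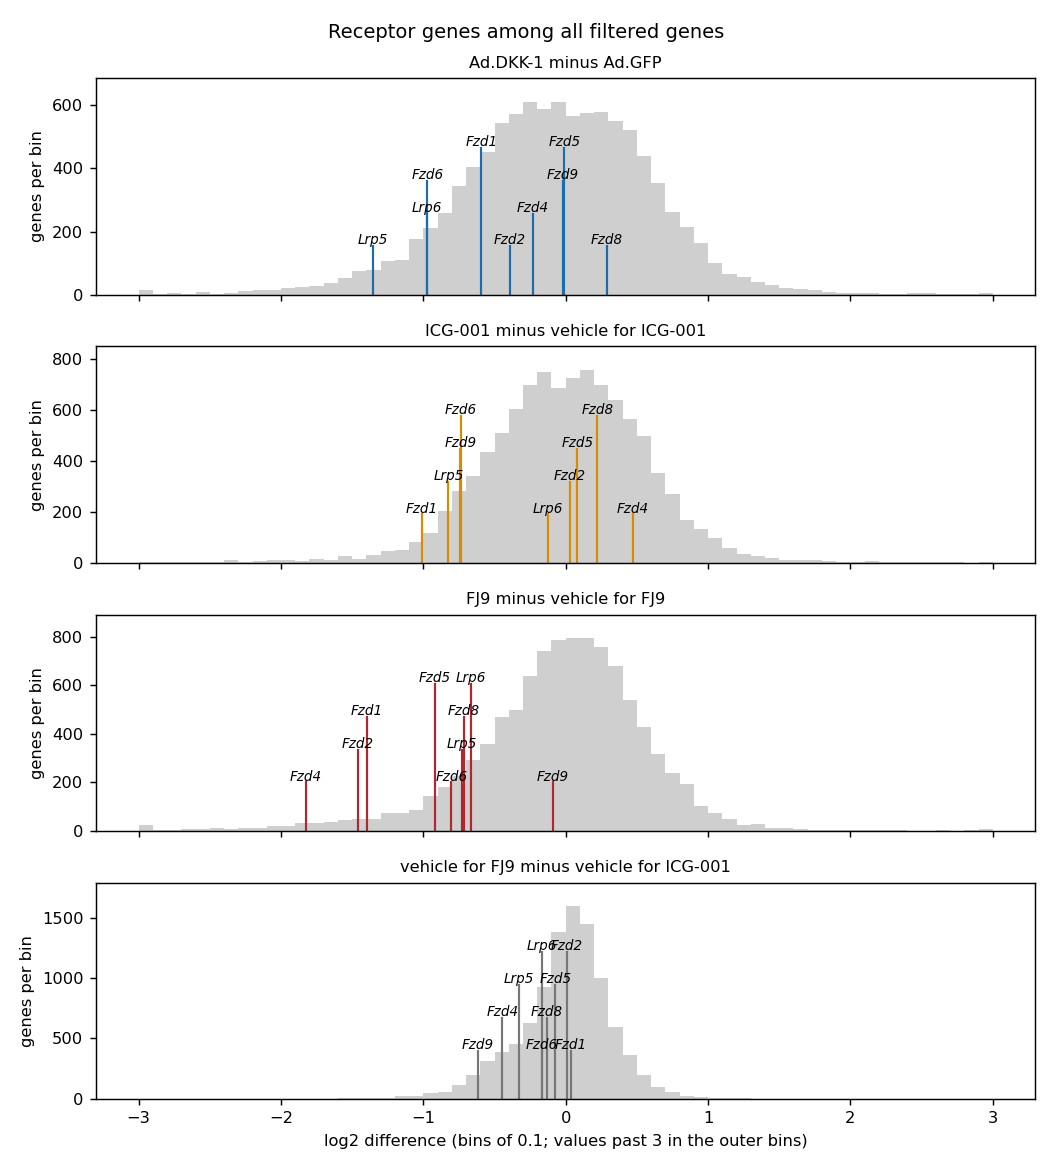
Number of genes per 0.1 bin of log2 difference (grey), with the 9 receptor genes as coloured lines whose height only separates the labels, for the 3 treatments and for the vehicle arrays. With FJ9, 8 receptor genes lie on the left side past −0.58 and Fzd9 at −0.09 lies near the centre; with ICG-001 they run from −1.01 to 0.47.

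ICG-001, which acts below the receptors, left the group divided. Fzd1, Lrp5, Fzd9 and Fzd6 were at least 1.5-fold lower than with vehicle, 4 of 9, and none was higher, beside 13.1% of all genes lower and 12.6% higher. Fzd2, Fzd5, Fzd8 and Lrp6 lay between −0.12 and 0.22, and Fzd4 was the highest at 0.47. The median over the 9 genes was −0.12, against 0.01 over all genes. Median centring adds 0.17 to each of these differences, which left Fzd1 and Lrp5 as lower and put Fzd4 past 1.5-fold higher. Against the vehicle of FJ9, Fzd1 at −1.05 was the 1 lower gene and Fzd4 the 1 higher.

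Over the treatments, Fzd1, Fzd6 and Lrp5 were past 1.5-fold lower in all 3, Lrp6 in 2, and the other 5 genes in 1 each. Among all genes, 3.14% were that much lower in all 3 treatments and 66% in none. Non-overlap of treated and control arrays was seen for the same 3 genes, with treated arrays on the lower side, and 13.2% of all genes were arranged so. None of the 9 had all treated arrays on the upper side, as 13.9% of all genes did. By sign alone, 5 of the 9 (these 3 with Lrp6 and Fzd9) were below their own control in every treatment, against 23.4% of all genes. For Lrp6 and Fzd9 this depended on the scaling. Under median centring the ICG-001 difference of Lrp6 was 0.05 and the Ad.DKK-1 difference of Fzd9 was 0.07.

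The mean of the 3 differences was tested with limma, fitted to all 10025 genes with each treatment and its control as a block. This test asks whether the treatments share a shift. It says nothing of any treatment alone, because DKK-1, ICG-001 and FJ9 act at different steps and do not replicate one another. By limma, 3 of the 9 receptor genes fell and none rose, where 5.02% of all genes were called lower and 3.56% higher. Fzd1 fell by 1.00 on the log2 scale (SE 0.20, limma adjusted p = 0.0079), lower in 3 of 3 pairs. Lrp5 fell by 0.97 (SE 0.20, limma adjusted p = 0.0087), also in 3 of 3. Fzd6 fell by 0.84 (SE 0.19, limma adjusted p = 0.016), in 3 of 3. Without the FJ9 pair the adjusted p of Fzd1 was 0.052, and that of Fzd6 was 0.053 without the ICG-001 pair, 0.055 with median centring and 0.081 without the block.

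Lrp6 and Fzd2 did not pass, with mean differences of −0.59 (SE 0.21, limma adjusted p = 0.097) and −0.61 (SE 0.25, limma adjusted p = 0.15). Fzd4 averaged −0.53 with an SE of 0.32, since its differences ran from −1.83 with FJ9 to 0.47 with ICG-001 (limma adjusted p = 0.31). The means of Fzd5, Fzd8 and Fzd9 lay between −0.28 and −0.07, with limma adjusted p-values from 0.48 to 0.86. Without the FJ9 pair the means of Fzd4, Fzd5 and Fzd8 turned positive, at 0.12, 0.04 and 0.25, with none called.

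**Figure D3:**
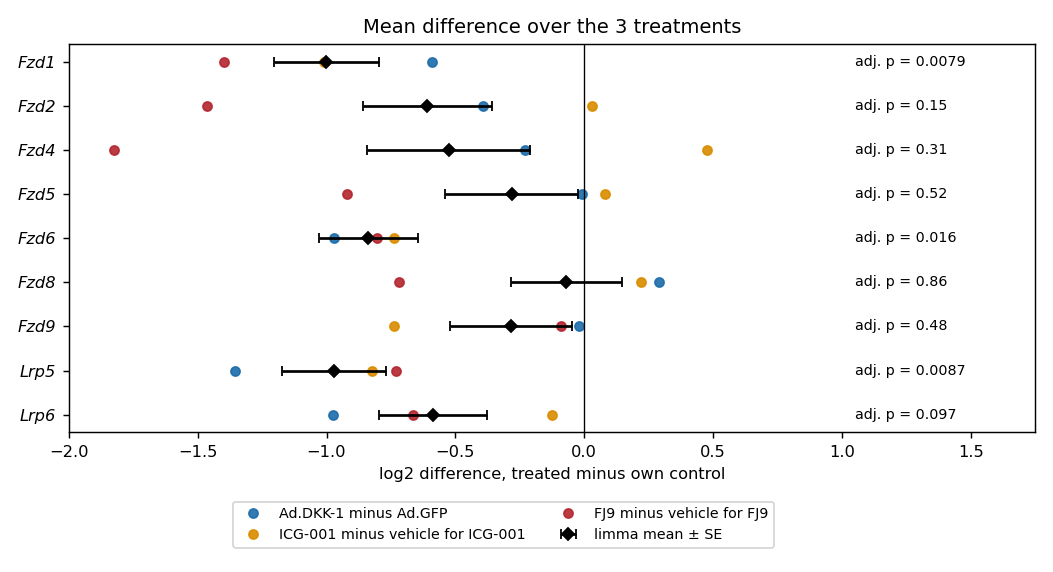
Log2 difference of each receptor gene under the 3 treatments (coloured points) and limma's mean over them with its standard error (black diamond and bar), with the adjusted p at the right. The 3 points of Fzd6 run from −0.97 to −0.74, while those of Fzd4 spread from −1.83 to 0.47.

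Genes next to the receptors in the pathway were counted in full from 6 lists. The counts are set beside the shares of all genes, which were 20.8% lower and 14.5% higher with Ad.DKK-1, 13.1% lower and 12.6% higher with ICG-001, 14.8% lower and 11.6% higher with FJ9, and 5.02% called lower by limma. Other Wnt receptors and co-receptors had 11 members past the filter, of which 10 were lower with Ad.DKK-1, 4 with ICG-001 and 5 with FJ9 (all genes 20.8%, 13.1% and 14.8%), and 2 were higher with FJ9. One of these members, Smo, is not a Wnt receptor and is named here for that reason, outside the naming rule. Smo was among the lower genes with Ad.DKK-1 (−0.61) and among the higher genes with FJ9 (0.70). The list's median differences were −1.10, −0.08 and −0.49, against −0.07, 0.01 and 0.01 over all genes. Limma called 4 of the 11 lower, beside 5.02% of all genes, and 1 of these, the pseudokinase receptor Ptk7, passed the level filter only through its control arrays and is given without its test. The other calls were the receptor kinase Musk, which carries a Frizzled-like domain (−1.47, limma adjusted p = 0.0034), the proteoglycan Sdc4 (−1.10, limma adjusted p = 0.0036) and the membrane-anchored Reck, a cofactor for Wnt7 ligands (−1.16, limma adjusted p = 0.0055). Ptk7 read 5.28 on Ad.DKK-1 against 8.00 on Ad.GFP, 5.69 with ICG-001 against 7.20 with its vehicle, and 5.48 with FJ9 against 6.95 with its vehicle. Ror1, a receptor of Wnt5a, was lowest in the FJ9 comparison at 6.90 against 8.23 with vehicle (mean over treatments −0.61, limma adjusted p = 0.22). Lrp4, a relative of the co-receptors, differed by −1.29 with Ad.DKK-1 (mean −0.29, limma adjusted p = 0.60). Between the vehicles Gpc3, Sdc4 and Ror2 differed most, by 0.73, 0.60 and −0.42.

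The list of receptor turnover and R-spondin genes had 8 members past the filter. By limma 0 of 8 were called, with 0 at an unadjusted p under 0.05. With Ad.DKK-1, 2 were lower, the receptor maturation inhibitor Shisa3 (8.41 against 9.89 on Ad.GFP) and the LGR ligand Rspo2 (6.58 against 7.45), beside 20.8% of all genes, and with ICG-001 and FJ9 none was past 1.5-fold. With ICG-001 Shisa4, Atp6ap2 and Usp8 lay furthest from 0, at 0.57, 0.34 and 0.32, and with FJ9 Rspo3 at 0.47 and Shisa3 at 0.29. Between the vehicles Shisa3 differed by −1.09, Rspo2 by 0.30 and Usp6nl by 0.23. Lgr4, the R-spondin receptor that spares Frizzleds from removal, differed by −0.45 with Ad.DKK-1 and −0.36 with FJ9.

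Secreted and membrane antagonists that bind the receptors or their ligands had 12 members past the filter. With Ad.DKK-1 4 were lower and 1 higher, with ICG-001 4 lower and none higher, and with FJ9 2 lower and 3 higher. The FJ9 share of lower genes is near the 14.8% of all genes; the shares of all genes lower were 20.8% with Ad.DKK-1 and 13.1% with ICG-001. By limma, which called 2 of the 12 beside 5.02% of all genes, Sfrp1, a secreted decoy with a Frizzled-like domain, fell by 2.51 (SE 0.28, limma adjusted p = 0.00017). It read 7.21 on Ad.DKK-1 against 9.02 on Ad.GFP, 7.63 with ICG-001 against 10.03 with its vehicle, and 6.53 with FJ9 against 9.84 with its vehicle. Frzb, another such decoy, fell by 1.23 (SE 0.30, limma adjusted p = 0.021), and the vehicles differed by 1.21 in that gene. Kremen1, the receptor through which DKK-1 removes LRP6 from the surface, read 7.82 on Ad.DKK-1 against 8.59 on Ad.GFP (mean over treatments −0.52, limma adjusted p = 0.18). The antagonist Wif1, which binds Wnt ligands, differed by 1.40 with FJ9 and by −0.62 between the vehicles (mean 0.69, limma adjusted p = 0.17). Igfbp4 differed by −0.91 with ICG-001, 0.75 with FJ9 and −0.74 between the vehicles.

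Ligands and their secretion factors had 16 members past the filter, of which 6 were lower and 1 higher with Ad.DKK-1, 3 lower and 1 higher with ICG-001, and 2 lower with FJ9. The shares of all genes lower were 20.8%, 13.1% and 14.8%, so that the FJ9 count is no more than the background. Limma called 1 of the 16, Wnt4, beside 5.02% of all genes called lower, so this count is near the background as well. Wnt4 read 9.62 on Ad.DKK-1 against 10.99 on Ad.GFP, 9.68 with ICG-001 against 10.45 with its vehicle, and 9.18 with FJ9 against 10.04 with its vehicle. Its mean fell by 1.00 (SE 0.20, limma adjusted p = 0.0071). Wnt5a, which signals through several Frizzleds and Ror receptors, differed by 1.21 with ICG-001 and by −1.05 with FJ9. Wnt3a differed by −1.42 with Ad.DKK-1 and −0.85 with ICG-001, Porcn, which puts the lipid on Wnt ligands, by −1.05 with Ad.DKK-1, and Wnt7b by −0.44 with FJ9. Between the vehicles Wnt3, Wnt10a and Wnt7b differed by −0.65, −0.55 and −0.54.

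Of 25 genes whose proteins act directly below the receptors or help them mature, 8 were lower and 2 higher with Ad.DKK-1, 5 lower and 4 higher with ICG-001, and 9 lower and 2 higher with FJ9. Of all genes 20.8%, 13.1% and 14.8% were lower and 14.5%, 12.6% and 11.6% higher, so the ICG-001 counts are near the background. By limma 4 of the 25 fell and none rose, beside 5.02% of all genes called lower. The scaffold and feedback gene Axin2 fell by 1.54 on average (limma adjusted p = 0.016), with differences of −1.96 (Ad.DKK-1), −0.13 (ICG-001) and −2.54 (FJ9). Amer1, which brings Axin to the membrane, fell by 0.93 (limma adjusted p = 0.0092) and the planar polarity gene Prickle2 by 0.86 (limma adjusted p = 0.017). Prickle1, named after its value was seen, fell by 0.75 (limma adjusted p = 0.021). Mesd, the chaperone that LRP5 and LRP6 need to leave the endoplasmic reticulum, read 9.32 on Ad.DKK-1 against 10.39 on Ad.GFP (mean over treatments −0.64, limma adjusted p = 0.072). Cav1, of the caveolae in which LRP6 can be taken up, read 11.22 with ICG-001 against 10.16 with vehicle and 7.64 with FJ9 against 9.83 with vehicle (mean −0.51, limma adjusted p = 0.44). Apc2, a relative of the scaffold Apc, read 5.76 on Ad.DKK-1 against 7.01 on Ad.GFP, and 5.78 with ICG-001 against 6.72 with its vehicle. It passed the level filter only through its control arrays and is given without its test. Between the vehicles Amer1, Daam1 and Dab2 differed by −0.58, 0.40 and 0.40.

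The list of other genes of the LDL receptor family, to which LRP5 and LRP6 belong, had 10 members past the filter. They include the chaperone Lrpap1, which is not a receptor, and Lrp4, which the list of other Wnt receptors holds too. Both were among the lower genes with Ad.DKK-1. With Ad.DKK-1, 4 of the 10 were lower, with ICG-001 1 was lower and 3 higher, and with FJ9 none was lower and 2 were higher. Of all genes 20.8%, 13.1% and 14.8% were lower and 14.5%, 12.6% and 11.6% higher. Lrp2, the endocytic receptor megalin, differed by −1.18 with Ad.DKK-1 and 1.62 with ICG-001, Lrpap1, a chaperone of the family, by −1.23 with Ad.DKK-1, and Lrp12 by 0.71 with FJ9. Between the vehicles Lrp11, Lrp1 and Vldlr differed by 0.57, −0.46 and 0.41. By limma 0 of 10 were called, with 3 at an unadjusted p under 0.05, Lrp3 among them. Lrp3 read 6.74 with ICG-001 against 5.50 with vehicle and 7.22 with FJ9 against 5.67 with vehicle. Both vehicle levels of Lrp3 lay under the level filter of 6.39, so it is given without its test. Vldlr, a lipoprotein receptor that also binds reelin, read 10.91 with ICG-001 against 9.85 with vehicle and 10.79 with FJ9 against 10.26 with vehicle (mean 0.65, limma adjusted p = 0.060). The difference between this family and the Wnt co-receptors was not tested.

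**Figure D4:**
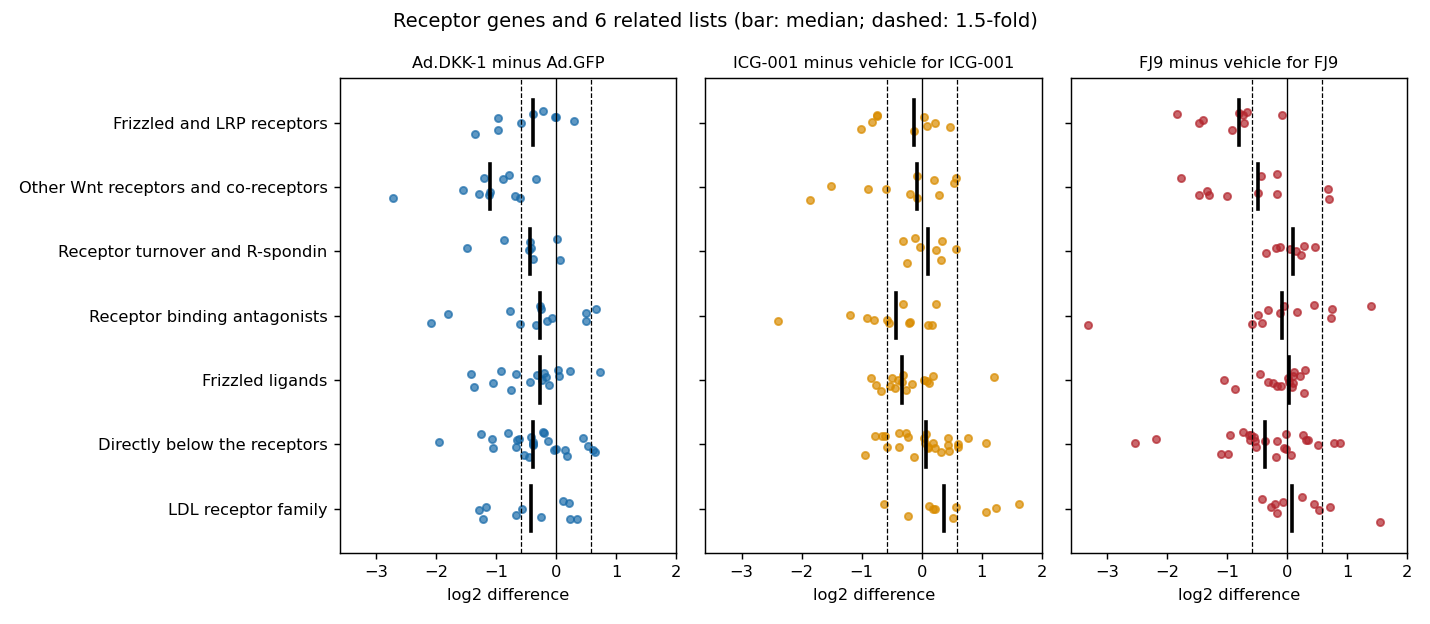
Log2 difference of every filtered member of 7 gene lists under the 3 treatments, 1 point per gene with the list median as a black bar and dashed lines at 1.5-fold. The receptor genes' medians are −0.39, −0.12 and −0.80 from left to right, and the LDL receptor family's are −0.42, 0.37 and 0.09.

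Stellate cell markers moved beside the receptor genes. Of the 13 markers past the filter, 7 were at least 1.5-fold lower with Ad.DKK-1, 3 with ICG-001 and 6 with FJ9, and none was higher, beside 20.8%, 13.1% and 14.8% of all genes lower. Desmin (Des) lay above its control at 9.48 against 9.17 with Ad.DKK-1 and 10.50 against 10.17 with ICG-001, and below it at 8.70 against 9.58 with FJ9. Rgs5, a pericyte marker, read 7.29 on Ad.DKK-1 against 10.41 on Ad.GFP, 6.13 with ICG-001 against 8.96 with its vehicle, and 8.01 with FJ9 against 9.17 with its vehicle. Vimentin, a mesenchymal filament gene (Vim), stood at 12.77 against 12.75, 12.81 against 12.76, and 13.09 against 13.05 in the same comparisons. Of the 4 macrophage markers past the filter, 4 were lower with Ad.DKK-1, 2 with ICG-001 and 2 with FJ9, and none was higher. The shares of all genes lower were again 20.8%, 13.1% and 14.8%. Cd14, the highest of these markers, read 10.68 on Ad.DKK-1 against 11.63 on Ad.GFP and 10.01 with ICG-001 against 11.12 with its vehicle. With FJ9 it read 9.69 against 11.16 with its vehicle. Csf1r, which is in these counts, passed the level filter only through its control arrays. The part of these shifts in the receptor values was not tested.

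The genes whose levels ran most like each receptor's over the 6 arrays were found by Pearson's r, as a description of arrays that share 3 pairs. Fzd1 was closest to Gpr39 (r = 0.994) and Ttpal (0.991), Fzd2 to Ppp1r3b (0.997) and Rai2 (0.993), and Fzd4 to Erf (0.992) and Abhd10 (0.990). Fzd5 was closest to Nedd4 (0.998) and Ankrd40 (0.985), Fzd6 to Cacng7 (0.999) and Khdc3 (0.990), and Fzd8 to Gulp1 (0.987) and Rab18 (0.986). Cacng7 lay near the level filter of 6.39, at 5.67 to 6.44 on treated and 6.56 to 7.06 on control arrays. Fzd9 ran with Krt15 (0.992) and Ttc39a (0.984), Lrp5 with Map2k6 (0.992) and Crat (0.990), and Lrp6 with Cd81 (0.996) and Gdf11 (0.992). Each r rests on 6 arrays, and the closest genes were picked from 10024 others. Between 25 and 96 of these reached 0.95 for a given receptor. No receptor gene was among the closest of another, and Gpr39, which read 8.50 with FJ9 against 10.97 with vehicle, varied over a wider range than Fzd1.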

How the data were processed

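Total RNA of primary rat hepatic stellate cells was hybridised to 6 Affymetrix whole-transcript arrays, 1 per group, after pooling over 3 to 4 rats, per the labels. The deposited values are log2 levels that, per the submitters' processing notes, the authors made in Affymetrix Expression Console by RMA; its version and the array's build are not given in those notes, and the number of arrays limits the precision. All 26988 probe sets were read as deposited. The platform annotation gave 15092 of them 1 symbol and 323 several, and 11573 are unnamed here; 15062 matched the RefSeq table of GRCr8 by gene ID, used for names alone. For 497 genes with several probe sets the one with the highest mean was kept, and the lowest 30% of genes by mean level (up to 6.39) were left out.

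Differences and counts were made with Python 3.11.15 and pandas 2.3.3. The mean over the 3 pairs was tested with limma 3.58.1 in R 4.3.3 (lmFit and eBayes, variance trended on level, two-sided test, p-values adjusted over 10025 genes by Benjamini-Hochberg, threshold 0.05), with 2 residual degrees of freedom for a gene. Its p-values rest on a variance that joins the spread among these 3 differences with the spread over all genes. With only 2 residual degrees of freedom for a gene, the spread over all genes holds most of the weight. The code was tested on simulated data. Each treatment was paired with its control by the sample titles. The receptor genes, the lists and the tests were chosen with earlier results of these data known. Named by rule were all receptor genes, for each list and comparison the 3 members with the largest differences, and the 2 genes closest to each receptor by Pearson's r; members called by limma outside that rule are marked. Array scaling, the choice of control, the fold threshold, the level filter, the block, the trend and each pair were varied. No sequences are shown, and none were used here.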

Additional observations from a re-analysis of the deposited data

Results flagged for a closer look

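In 4 Frizzled genes the difference had opposite signs under different treatments, each time beyond the gene's own difference between the vehicle arrays. Fzd4 differed by 0.47 with ICG-001 and −1.83 with FJ9. Fzd8 differed by 0.29 with Ad.DKK-1 and 0.22 with ICG-001, against −0.72 with FJ9. Fzd5 differed by 0.081 with ICG-001 and −0.92 with FJ9. Fzd2 differed by 0.030 with ICG-001, against −0.39 with Ad.DKK-1 and −1.46 with FJ9. Under cyclic loess its ICG-001 difference was −0.023, so its sign depended on the scaling. The positive values of Fzd2 and Fzd5 were far inside the spread of 0.34 of the vehicle difference over genes. Those of Fzd8 were inside it as well. In each of these genes FJ9 gave the lower value. The difference between treatments was not tested, since each has 1 array, and the doses of the compounds were not alike.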

How the results depend on the processing

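The count of receptor genes past 1.5-fold with FJ9 was 8 as deposited and under median centring, repeated quantile normalization, cyclic loess and averaged probe sets, and 9 with the vehicle of ICG-001 as control. With ICG-001 the count of 4 became 2 with the vehicle of FJ9, 1 lower and 1 higher, and 3 with median centring, 2 lower and 1 higher. With Ad.DKK-1 the count of 4 became 3 under median centring, repeated quantile normalization and cyclic loess, each time without Fzd1. It was 6 (5 lower, Fzd8 higher) with the vehicle of ICG-001 and 5 (4 lower, Fzd8 higher) with that of FJ9. Those vehicles received no virus, so infection and DKK-1 cannot be told apart in these last counts. A threshold of 2-fold left 1 gene with Ad.DKK-1, 1 with ICG-001, 3 with FJ9 and 0 between the vehicles. The vehicle count of 1 was also 0 with median centring. No share of all genes is given for 2-fold or for exchanged controls, so those counts are not set against a background.

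The number of receptor genes called by limma was 3, and ranged from 2 to 3 when each pair was left out. It was 2 without the replicate block and with median centring, and 3 in the 5 other settings. The limma adjusted p of Lrp5 ranged from 0.0035 to 0.040 over all settings, that of Fzd1 from 0.0010 to 0.052 and that of Fzd6 from 0.014 to 0.081, so Fzd1 lost its call in 1 of 10 alternatives and Fzd6 in 3. No paired analysis by replicate number was possible because the labels give no replicate numbers; the block is the treatment's own control. Over all genes, median centring turned the ICG-001 split of 1267 higher and 1314 lower into 2218 and 754, and the Ad.DKK-1 split of 1449 and 2082 into 1874 and 1681; the vehicle split of 245 and 521 became 575 and 265. It was 457 and 407 with quantile normalization and 380 and 321 with cyclic loess. The cause of these changes was not tested. One array per group limits every single-treatment value.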
